A study of Mus musculus with 4 samples.

Results

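The 42 genes described here are the immediate early genes and the heat shock genes of a mouse ear Langerhans cell transcriptome. They were chosen by symbol from a fixed list of 34 immediate early genes and 8 heat shock genes. The rule used no measured value, but the list was chosen with earlier results of these data known. All 42 were found among the 55487 genes of the count table. Only Ddit3 had more than 1 row, and its row with the largest total was used. RNA came from Langerhans cells, which are the antigen-presenting cells that reside in the epidermis, taken from the ears of wild-type mice. The ears had been treated with Vaseline, the control (2 libraries), or with imiquimod, a Toll-like receptor agonist that gives a psoriasis-like inflammation of the skin (2 libraries). The labels give no age, sex, dose, duration or isolation method. Nothing in them says that the 2 libraries of a treatment are separate animals, and p-values therefore reflect how these samples vary, which may be technical variation only.

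Immediate early genes are transcribed within minutes of a stimulus from factors that are already present in the cell, and many of their transcripts decay as quickly. Their products include the AP-1, EGR and NR4A transcription factors, and phosphatases and RNA-binding proteins that end the signal. Heat shock genes encode chaperones: those of the cytosol are induced by the factor HSF1 when proteins misfold, and that of the endoplasmic reticulum by the unfolded protein response. Both programmes respond to cytokines and Toll-like receptor signals in skin, and both are also known to be induced while tissue is dissociated and cells are sorted.

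These genes were among the most abundant transcripts of every library. Counts were scaled to the library total, as CPM, and divided by exon length, which allows levels of different genes to be compared. On this scale 34, 34, 36 and 34 of the 42 genes stood among the 1000 highest of all genes in Vaseline 1, Vaseline 2, imiquimod 1 and imiquimod 2; values below keep that order of libraries. Hspa1b and Hspa1a, which encode the inducible cytosolic HSP70, were highest, with means over the 4 libraries of 1281 and 1197 CPM per exonic kilobase. The constitutive HSP70 Hspa8 had 604, the AP-1 subunit Jun 509 and the HSP90 gene Hsp90aa1 438. Next came Atf3, a stress-induced repressor of transcription, at 436 and Fos, the partner of Jun in AP-1, at 431. Zfp36, Nr4a3, Junb, Hspa5 and Fosb completed the 12 highest, from 338 down to 285 on the same scale. Together the 42 genes took 2.26%, 3.06%, 4.26% and 2.54% of all counts, so that imiquimod 1 held the largest share and the groups overlapped.

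Library totals were 41998172, 76028955, 14902782 and 20690182 counts. Olfactory and vomeronasal receptor genes, 1768 in number, served as a measure of background, and their median level per exonic kilobase was 0.377, 0.0913, 0.526 and 1.26 CPM. All 42 genes lay at 19.0 times this background or higher as a mean over the libraries. This mean leans on Vaseline 2, where the background was lowest. Egr2, the gene with the lowest mean, stood at 16.2, 41.3, 15.3 and 3.09 times the background, so below 5 times in imiquimod 2. Summed Langerhans cell markers (16 genes) were at 24772, 40824, 10234 and 13538 CPM of the library total, lower in both imiquimod libraries. Cd207, which encodes langerin and is 1 of these markers, was present at 2151, 4113, 1262 and 952 CPM. Basal keratinocyte markers were at 16471, 12167, 18679.8 and 7310.1 CPM, and the keratin Krt14 exceeded Cd207 in each library. Activated keratinocyte markers (9 of 10 found) were at 400.0, 490.5, 1612 and 796 CPM, higher in both imiquimod libraries. Suprabasal keratinocyte markers were at 3343, 2077, 1638 and 1205 CPM, lower in both imiquimod libraries. Neutrophil markers were at 15.5, 30.04, 77.5 and 446 CPM, and mitochondrial transcripts, a sign of RNA and cell quality, at 7865, 8409, 3773 and 7739 CPM. In bulk samples fewer cells of a type and less RNA per cell cannot be told apart, and the part of these other cells in the results below was not tested. The Vaseline libraries share a letter code in the labels, whereas the imiquimod libraries have different codes, with no meaning given; if the codes stand for batches, batch and treatment cannot be told apart.

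**Figure D1:**
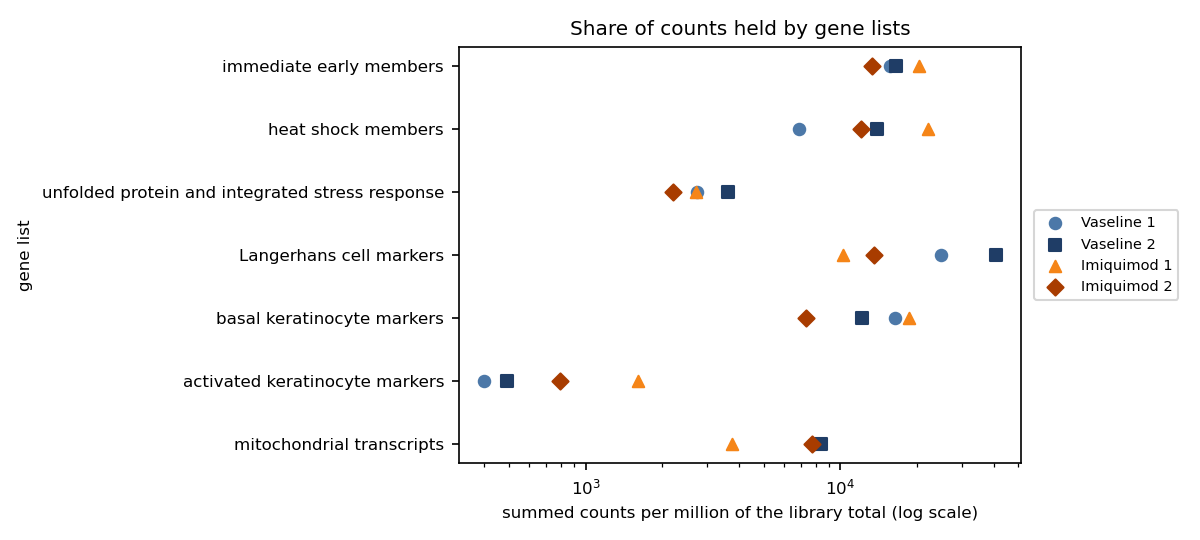
Summed CPM of the library total of gene lists (x axis, log scale) in each of the 4 libraries, 1 point per library. Immediate early and heat shock genes are highest in imiquimod 1, and Langerhans cell markers are lower in both imiquimod libraries than in both Vaseline libraries.

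No immediate early or heat shock gene passed the threshold between imiquimod and Vaseline. The edgeR quasi-likelihood test, with Benjamini-Hochberg adjustment over 39439 genes, called 0 of the 42 higher and 0 lower, where 0.0634% and 0.137% of all tested genes were called; adjusted p ran from 0.281 to 0.993. At an unadjusted p under 0.05, 1 gene was higher (Hspb1) and 2 were lower (Nr4a2 and Dusp2), beside 8.63% and 5.1% of all tested genes. DESeq2 called 0 higher and 1 lower (Nr4a2), where it called 0.0152% and 1.7% of all tested genes, and limma-voom called 0 and 0. The DESeq2 shares count genes to which it gave no adjusted p, which lowers them, whereas all 42 had one. Among the 14602 genes at 5 times the background or more, fitted alone, edgeR called 0 genes of the whole table. In that fit 3 of the 42 were higher at an unadjusted p under 0.05 (Klf2, Hspb1 and Dnajb1) and 1 was lower (Nr4a2), beside 5.47% and 4.79% of all genes there. Counts as small as these were not compared with the shares by a test, and nothing is read from them. Most of the 39439 tested genes also lay nearer the background than the 42.

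The direction of the set depended on the scaling. In the fit of all tested genes 34 of the 42 had a negative log2 fold change of imiquimod over Vaseline, with a median of -0.52. That median was 0.41 over all tested genes and -0.91 over the 7377 genes whose ratio to the background was at least that of the lowest of the 42, of which 93.5% were negative. Among genes above background fitted alone 26 of the 42 were positive, with a median of 0.15, beside 0.079 for all genes of that fit and -0.16 over the same 7377 genes, of which 35.5% were positive. On library totals 27 were positive, with a median of 0.19, beside 1.30 for all genes and -0.11 over the 7377, of which 38.9% were positive. The difference between the 42 and these genes was not tested. Immediate early genes had a median of -0.67 in the first fit and 0.053 in the second, and 3 and 19 of the 34 were positive. Heat shock genes had 0.20 and 0.97, and 5 and 7 of the 8 were positive. Fold changes below are therefore given from both fits: the fit of all tested genes first, then that of genes above background.

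Single libraries decided the direction as well. In TMM-normalised CPM, which use an effective library total, 26 of the 42 genes were highest in Vaseline 2 and the other 16 in imiquimod 1, while 36 were lowest in imiquimod 2. These counts depended on the scaling too, since the effective totals were 0.956, 0.599, 1.05 and 1.66 times the library totals. On library totals 29 genes were highest in imiquimod 1 and 10 in Vaseline 2, and 20 were lowest in imiquimod 2. Without imiquimod 1 all 42 had a negative log2 fold change in the fit of all tested genes, and without imiquimod 2 there were 21 positive and 21 negative. Groups did not overlap in normalised CPM for 10 genes that were lower with imiquimod, or 23.8% of the 42 (Fos, Fosl2, Junb, Nr4a2, Nr4a3, Ier2, Ier5, Dusp2, Dusp5 and Hspa5), and for 0 that were higher. Of all tested genes, 20.9% were lower and 30.5% higher without overlap. Only 7377 of the 39439 tested genes lay as far above the background as the 42, and the share among these was not computed. In CPM of the library total, 5 were lower without overlap (Junb, Nr4a2, Nr4a3, Dusp2 and Hspa5; 11.9%) and 6 higher (Klf2, Klf6, Hspa1b, Hsph1, Hspb1 and Dnajb1; 14.3%), beside 19.3% and 23.6% of genes above background. Nr4a2, Nr4a3, Junb, Dusp2 and Hspa5 were thus lower in both imiquimod libraries on either scale.

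**Figure D2:**
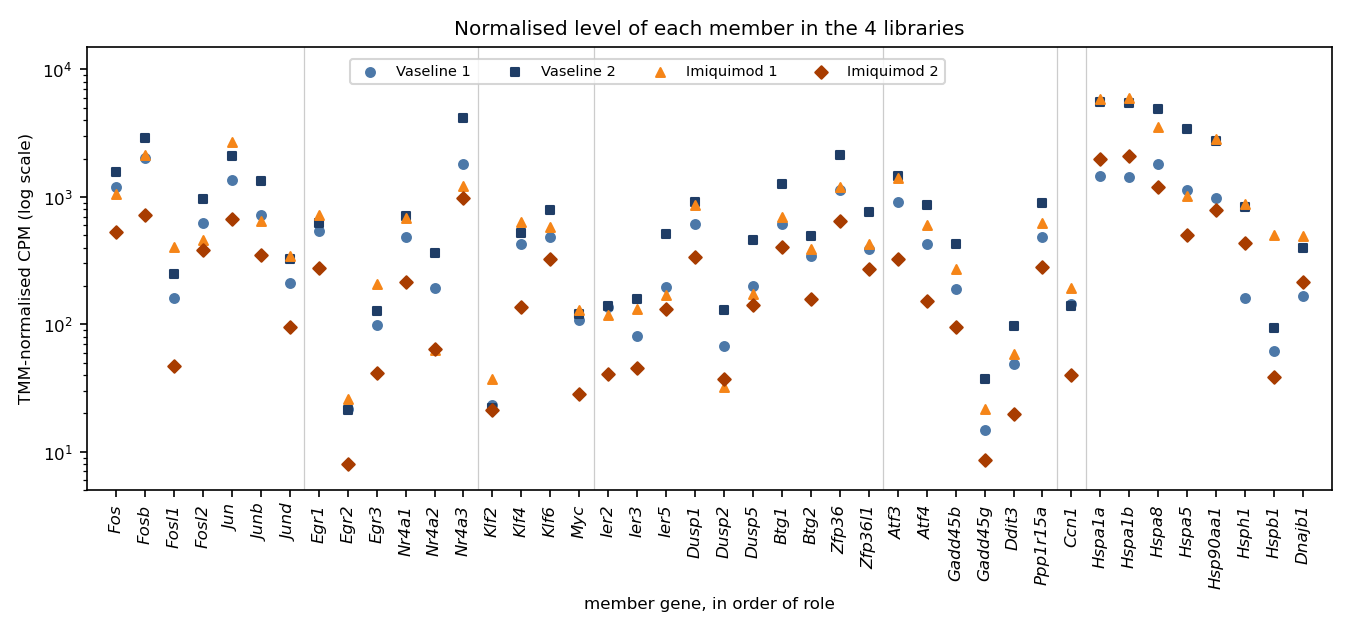
TMM-normalised CPM (y axis, log scale) of each of the 42 genes in the 4 libraries, 1 point per library, with vertical lines between AP-1 subunits, EGR and NR4A factors, KLF factors and Myc, feedback regulators, stress response genes, Ccn1 and heat shock genes. Imiquimod 2 is the lowest library for 36 genes, and Hspb1 stands apart in imiquimod 1 at 504 CPM.

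**Figure D3:**
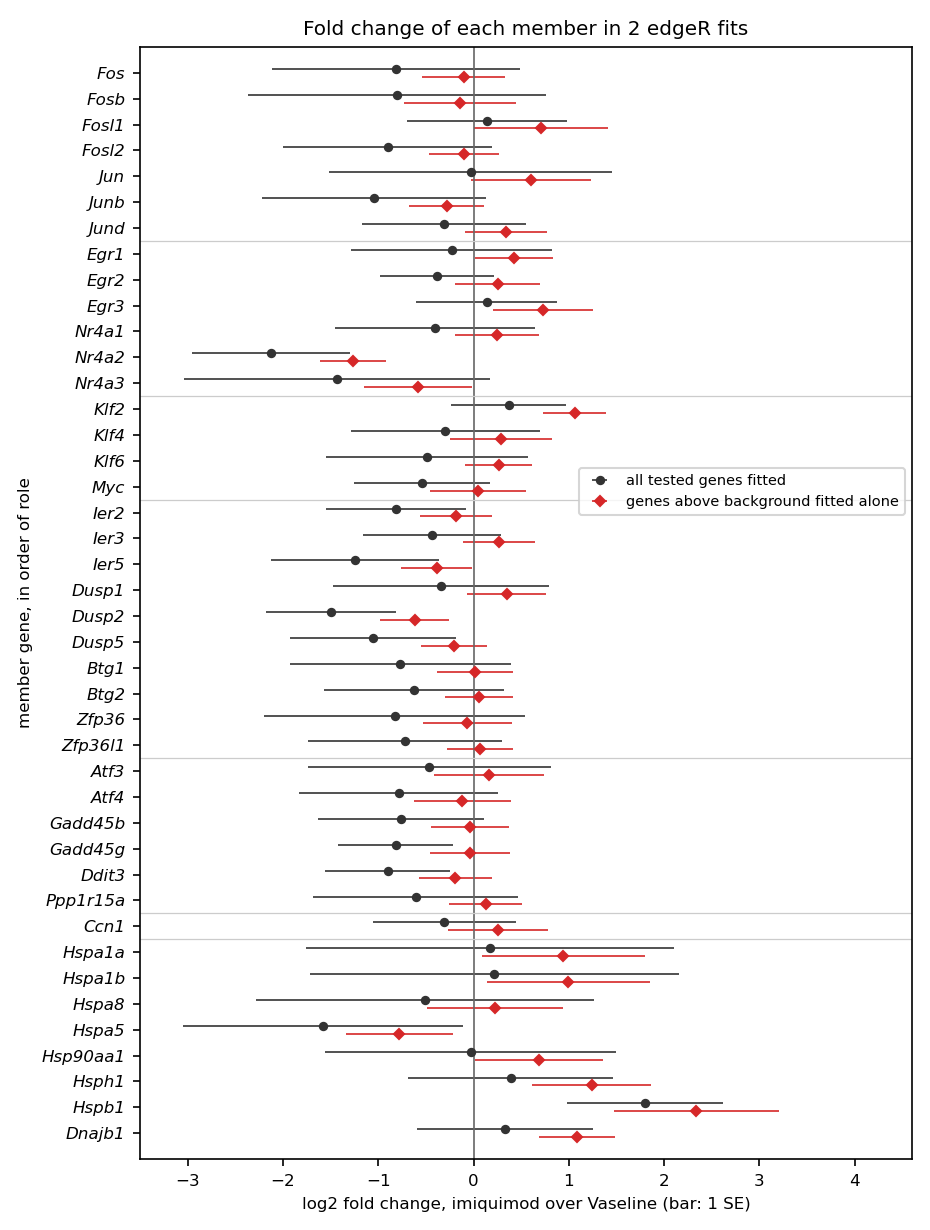
Log2 fold change of imiquimod over Vaseline (x axis; bars are 1 SE) for each gene in the edgeR fit of all tested genes and in that of genes above background. The second value is higher for every gene. Nr4a2 and Hspa5 are among the 16 genes negative in both fits, and Hspb1 is among the 8 positive in both.

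AP-1 is a dimer of a Fos and a Jun protein that binds TGANTCA sites. Of its subunits, Fos had 1203 and 1555 CPM after Vaseline and 1048 and 528 CPM after imiquimod. Its groups did not overlap, but the log2 fold changes of -0.81 (SE 1.30, edgeR adjusted p = 0.724) and -0.10 (SE 0.44, adjusted p = 0.948) were smaller than their SE, and on library totals the value was -0.073. Fosb, a close relative of Fos, had 2029, 2914, 2120.0 and 717 CPM, with imiquimod 2 alone below the rest. Fosl2, a Fos-related subunit that lasts longer after stimulation, had 620.4, 959, 459.9 and 386 CPM and a fold change of -0.90 (SE 1.10, edgeR adjusted p = 0.637) and -0.097 (SE 0.37, adjusted p = 0.941). Fosl1, the other Fos-related subunit, was highest and lowest in the imiquimod libraries, at 160.2, 249, 406 and 47.1 CPM. Its fold changes were 0.14 and 0.71, and 50.2% of its possible 75-base reads also match Ccdc85b, so its counts are uncertain.

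The Jun subunits behaved alike in imiquimod 2, where each was lowest. Jun had 1353 and 2083 CPM after Vaseline and 2695 and 671 CPM after imiquimod, and its fold change was -0.030 (SE 1.49, edgeR adjusted p = 0.992) and 0.60 (SE 0.63, adjusted p = 0.739). Junb, which can restrain the activity of Jun, had 718, 1325, 643 and 349 CPM, lower in both imiquimod libraries, with -1.04 (SE 1.18, edgeR adjusted p = 0.611) and -0.28 (SE 0.39, adjusted p = 0.807). Jund, the subunit that is expressed most steadily, had 213, 327, 341 and 95.3 CPM, with overlapping groups and -0.31 and 0.34. Of its possible 75-base reads 45.9% match the model gene Gm11175. Summed over the 7 subunits AP-1 took 6019, 5635, 8118 and 4634 CPM of the library total, with imiquimod at both ends of the range.

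EGR factors, zinc-finger proteins induced by growth factor and MAP kinase signals, did not separate the groups. Egr1 had 541 and 627 CPM after Vaseline and 719 and 278 CPM after imiquimod, and -0.23 (SE 1.06, edgeR adjusted p = 0.908) and 0.42 (SE 0.41, adjusted p = 0.714). Egr2 was far lower, at 21.7, 21.4, 25.9 and 7.95 CPM, and Egr3 was at 98.1, 127, 207 and 41.3 CPM. In normalised CPM imiquimod 1 was highest and imiquimod 2 lowest for both genes. Their log2 fold changes were -0.38 and 0.25 for Egr2 and 0.14 and 0.73 for Egr3.

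The NR4A genes encode orphan nuclear receptors, which act without a known regulating ligand and are induced by many signals in myeloid cells and T cells. Nr4a2 (GRCm38 chr2:57106830-57124003) gave the lowest p of the 42 genes. It had 192 and 365 CPM after Vaseline and 63.0 and 64.5 CPM after imiquimod, a mean of 278 ± 122 after Vaseline and 63.7 ± 1.06 after imiquimod (SD, 2 libraries each), and the groups did not overlap. The edgeR log2 fold change was -2.13 (SE 0.83, edgeR adjusted p = 0.281) and -1.27 (SE 0.35, adjusted p = 0.441), with unadjusted p of 0.0104 and 0.00911. DESeq2 gave -2.44 (adjusted p = 0.00663), the only call for any of the 42 genes. On library totals Nr4a2 had 184, 218, 66.3 and 107 CPM, and its fold change there was -1.21. With each library left out in turn it stayed between -2.64 and -1.62.

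Nr4a3 was the most abundant of the family per exonic kilobase. Nr4a3 had 1795 and 4153 CPM after Vaseline and 1218 and 987 CPM after imiquimod, lower in both imiquimod libraries, with -1.43 (SE 1.61, edgeR adjusted p = 0.610) and -0.58 (SE 0.57, adjusted p = 0.718). Nr4a1 had 484, 711, 687 and 216 CPM, which overlapped, and fold changes of -0.41 and 0.25. The ratio of Nr4a2 to Nr4a1 counts within a library, which no scaling between libraries can move, was 0.397, 0.513, 0.0917 and 0.299. It was lower in both imiquimod libraries, 0.429-fold on average, with a two-sided exact permutation p of 0.333, the smallest that 2 against 2 libraries allow. The ratio of Nr4a3 to Nr4a1 was 3.71, 5.84, 1.77 and 4.58, with overlapping groups (exact permutation p of 0.667). Both ratios were chosen after the values were seen.

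The stretches before the start of Fos and Nr4a2 are shown because both carry the core of the cAMP response element, TGACG, in capitals here on either strand (CGTCA on the other strand). They are RefSeq promoters of build GRCm38.p6, written 5′ to 3′ on the strand of the gene, and end 1 base before its start: Fos at chr12:85473760-85473889 (plus strand) and Nr4a2 at chr2:57124004-57124203 (minus strand).
Fos: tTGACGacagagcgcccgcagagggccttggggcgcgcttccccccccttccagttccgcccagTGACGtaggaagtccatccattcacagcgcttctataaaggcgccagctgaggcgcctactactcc
Nr4a2: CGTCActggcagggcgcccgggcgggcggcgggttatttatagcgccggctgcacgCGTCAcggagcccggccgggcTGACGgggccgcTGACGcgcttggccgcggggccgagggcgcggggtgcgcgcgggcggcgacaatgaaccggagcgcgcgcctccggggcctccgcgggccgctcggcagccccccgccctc
The core lies at bases -129 and -66 before the start of Fos, and at 4 places before that of Nr4a2. Windows ran from 250 bases before to 50 after the start, and a gene counted if any of its windows matched. TGACG on either strand was found in 21 of the 35 genes with a RefSeq entry, and in 23.0% of all 27025 genes with an entry. A CArG box, the site of serum response factor, was in 3 of the 35 (Dusp5, Egr2 and Zfp36) and in 1.81% of all genes. The full element TGACGTCA, which holds the core, was also in 3 (Btg2, Dusp1 and Ppp1r15a) and in 2.03% of all genes. The AP-1 site TGANTCA was in 3 of the 35 (8.97% of all genes), and TATAAA in 9 (15.7%). A match describes the letters and says nothing of binding.

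Of the KLF zinc-finger factors, Klf2, which maintains quiescence, was low, at 23.3, 21.9, 37.5 and 21.3 CPM. On library totals it had 22.3, 13.1, 39.5 and 35.3 CPM, higher in both imiquimod libraries. Its fold change was 0.37 (SE 0.60, edgeR adjusted p = 0.729) and 1.06 (SE 0.33, adjusted p = 0.466), with an unadjusted p of 0.0163 in the second fit. Klf4, a factor of epidermal differentiation, had 424, 522, 635 and 136 CPM, and Klf6 480.3, 794, 583 and 327 CPM; neither separated the groups in normalised CPM. Myc, which drives growth, had 109, 120.2, 131 and 28.2 CPM and -0.54 and 0.045.

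Feedback regulators end the early response. Dusp2, a nuclear phosphatase of MAP kinases, had 68.0 and 128 CPM after Vaseline and 32.1 and 37.4 CPM after imiquimod, or 98.2 ± 42.7 after Vaseline and 34.7 ± 3.75 after imiquimod (SD, 2 libraries each). The groups did not overlap, and the edgeR log2 fold change was -1.50 (SE 0.68, edgeR adjusted p = 0.336) and -0.62 (SE 0.36, adjusted p = 0.561), with an unadjusted p of 0.0287 in the first fit. Dusp1, which inactivates p38 and JNK, had 613, 917, 871 and 339 CPM and -0.34 and 0.35, with overlapping groups. Dusp5, specific for ERK, had 201, 456, 174 and 143 CPM and -1.05 and -0.20.

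The ratio of Dusp2 to Dusp1 counts was 0.111, 0.140, 0.0368 and 0.110, so that imiquimod 1 was low and imiquimod 2 close to Vaseline 1. The groups did not overlap, by a narrow margin, with an exact permutation p of 0.333, and the ratio was chosen after the values were seen. Among RNA-binding regulators, Zfp36, or tristetraprolin, which destroys cytokine transcripts with AU-rich elements, had 1125, 2149.7, 1205 and 642 CPM. Its fold changes of -0.83 (SE 1.37, edgeR adjusted p = 0.732) and -0.065 (SE 0.47, adjusted p = 0.971) were smaller than their SE. Its relative Zfp36l1 had 390.3, 760.3, 428 and 271 CPM and -0.72 and 0.070, but 49.2% of its possible reads match the model gene Gm26669. Btg1 and Btg2, which restrain proliferation, had 609.9, 1264, 696 and 405 CPM and 345, 494, 387 and 157 CPM. In normalised CPM both were highest in Vaseline 2 and lowest in imiquimod 2. On library totals Vaseline 1 was lowest for Btg1 and imiquimod 1 highest for Btg2. Of the IER genes, Ier5, a regulator of HSF1, had 197, 515, 170.4 and 131 CPM and -1.24 (SE 0.88, edgeR adjusted p = 0.460) and -0.39 (SE 0.38, adjusted p = 0.716). Ier2 had 137, 139, 118 and 40.7 CPM with fold changes of -0.81 and -0.19. Ier3 had 80.9, 158, 132 and 45.5 CPM, with -0.44 and 0.27. All 10 feedback regulators had negative values in the fit of all tested genes and 5 of them positive values among genes above background.

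Among stress response genes Atf3 had 916 and 1457 CPM after Vaseline and 1400.2 and 323 CPM after imiquimod, with -0.46 (SE 1.27, edgeR adjusted p = 0.842) and 0.17 (SE 0.58, adjusted p = 0.935). Atf4, whose protein is made when the integrated stress response slows translation, had 428, 864, 598 and 152 CPM and -0.79 and -0.12. Ddit3, which encodes the stress factor CHOP, had 49.2, 96.1, 58.8 and 19.8 CPM, and Ppp1r15a, which restores translation, 488, 893, 624 and 284 CPM. In normalised CPM Vaseline 2 was highest and imiquimod 2 lowest in each of these genes. The growth arrest genes Gadd45b and Gadd45g, with 190.4, 427, 269.9 and 95.5 CPM and 14.8, 37.3, 21.7 and 8.62 CPM, had the same order at both ends. This order depended on the scaling. On library totals imiquimod 1 was highest for all 6 stress response genes, and imiquimod 2 was lowest for 4 of them. Ccn1, a secreted matrix protein and target of the YAP pathway, had 144, 140.1, 191 and 40.0 CPM and -0.30 and 0.26.

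The heat shock genes fall under separate regulators, and the promoters of 4 of them are shown because they hold the elements those regulators read. The stretches shown are RefSeq promoters of build GRCm38.p6, on the strand of the gene: Hspa1a at chr17:34972157-34972286 (minus strand), Hspa1b at chr17:34959239-34959368 (minus) and Hspb1 at chr5:135887749-135887918 (plus), each ending 1 base before the RefSeq start, and Hspa5 at chr2:34772025-34772043 (plus). For Hspa5 only the element is printed, because GENCODE starts this gene upstream of it, at chr2:34771970. Capitals mark the heat shock element core GAANNTTC, which HSF1 reads, in the first 3 genes. In Hspa5 they mark the endoplasmic reticulum stress element, CCAAT and CCACG with 9 bases of any kind between them.
Hspa1a: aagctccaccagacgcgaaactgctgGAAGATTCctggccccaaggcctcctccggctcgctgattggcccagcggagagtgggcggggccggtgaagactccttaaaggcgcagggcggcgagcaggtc
Hspa1b: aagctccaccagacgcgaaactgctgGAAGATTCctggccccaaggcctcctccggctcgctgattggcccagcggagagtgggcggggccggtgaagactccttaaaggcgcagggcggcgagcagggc
Hspb1: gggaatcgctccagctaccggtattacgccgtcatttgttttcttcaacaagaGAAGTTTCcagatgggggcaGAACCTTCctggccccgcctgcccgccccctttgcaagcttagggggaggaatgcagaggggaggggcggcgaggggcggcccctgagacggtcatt
Hspa5: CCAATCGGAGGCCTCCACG
The core lies at bases -104 to -97 in Hspa1a and Hspa1b, whose 130 bases differ at 1 position, and at -117 to -110 and -97 to -90 in Hspb1. GAANNTTC, a palindrome searched on both strands, was found in 4 of the 6 heat shock genes with an entry (also Hsph1). It was in 2 of 29 immediate early genes (Fosl2 and Jun) and in 9.04% of all genes with an entry. The other arrangement of the core, TTCNNGAA, was found in 1 of 6, 2 of 29 and 9.60%. The endoplasmic reticulum stress element, at -65 to -47 from the RefSeq start, was in Hspa5 alone of the 35 genes and in 0.137% of all genes.

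Hspa1a (chr17:34969190-34972156) and Hspa1b (chr17:34956436-34959238) moved together. Hspa1a had 1461 and 5527 CPM after Vaseline and 5906 and 1976 CPM after imiquimod, and Hspa1b had 1429, 5471, 5941 and 2090.4 CPM. In normalised CPM Vaseline 2 and imiquimod 1 were high and the other library of each group low, so the groups overlapped. On library totals Hspa1a had 1397, 3309, 6217 and 3280 CPM, which also overlapped. Hspa1b had 1366, 3276, 6254 and 3469 CPM there, without overlap. Fold changes were 0.17 (SE 1.93, edgeR adjusted p = 0.964) and 0.94 (SE 0.85, adjusted p = 0.693) for Hspa1a. For Hspa1b they were 0.22 (SE 1.93, edgeR adjusted p = 0.954) and 1.00 (SE 0.85, adjusted p = 0.677). The transcripts are 93.6% identical over 2735 aligned bases and share 52.7% of the possible reads of Hspa1a, so the split of reads between them is uncertain. Hspa8 had 1815, 4917, 3524 and 1204 CPM and -0.51 and 0.23, and Hsp90aa1, the inducible HSP90, 988, 2720.4, 2843 and 792 CPM and -0.029 and 0.68. These genes had overlapping groups, and 33.0% and 42.8% of their possible reads also match other genes.

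Hsph1, an HSP110 that recharges HSP70 with ATP, had 162 and 834 CPM after Vaseline and 874 and 431 CPM after imiquimod. Its fold change was 0.39 (SE 1.08, edgeR adjusted p = 0.843) and 1.24 (SE 0.62, adjusted p = 0.517), and on library totals it had 155, 499, 920.1 and 715 CPM. Dnajb1, the HSP40 that hands clients to HSP70, had 168, 396, 495 and 215 CPM and 0.33 (SE 0.92, edgeR adjusted p = 0.844) and 1.09 (SE 0.40, adjusted p = 0.478), with an unadjusted p of 0.0315 in the second fit. On library totals Dnajb1 had 160.1, 237, 521 and 358 CPM, so that both genes were higher in both imiquimod libraries on that scale and overlapped in normalised CPM. None of their possible reads match another gene.

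Hspb1, the small heat shock protein HSP25 that keratinocytes also make in quantity, had 61.8 and 93.6 CPM after Vaseline and 504 and 38.7 CPM after imiquimod. Imiquimod 1 alone was high, and in normalised CPM imiquimod 2 was the lowest library. On library totals Hspb1 had 59.1, 56.1, 530.1 and 64.2 CPM, where imiquimod 2 lay slightly above both Vaseline libraries. The edgeR fold change was 1.80 (SE 0.82, edgeR adjusted p = 0.336) and 2.34 (SE 0.87, adjusted p = 0.480), with unadjusted p of 0.0289 and 0.0329, and without imiquimod 1 it was -1.08. Imiquimod 1 also had the largest shares of activated and of basal keratinocyte marker counts, as given above. Other keratinocyte markers went the other way. Suprabasal markers in imiquimod 1 were below both Vaseline libraries, and the basal keratin Krt5 was highest in Vaseline 1, at 4733, 3768, 3774 and 1921 CPM of the library total. The part of keratinocytes in the Hspb1 value was not tested. Of the possible reads of Hspb1, 46.4% match the pseudogene Hsp25-ps1.

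Hspa5 encodes BiP, the chaperone of the endoplasmic reticulum, and was the heat shock gene with the lowest fold change in both fits. It had 1125 and 3402 CPM after Vaseline and 1011 and 502 CPM after imiquimod, lower in both imiquimod libraries, and 1076, 2037, 1064 and 833 CPM on library totals. Its edgeR fold change was -1.58 (SE 1.47, edgeR adjusted p = 0.546) and -0.78 (SE 0.56, adjusted p = 0.622), and with DESeq2 the adjusted p was 0.0806. It stayed negative with each library left out, from -2.28 to -0.59.

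Ratios of chaperone counts within a library do not depend on scaling between libraries. Hspa1a and Hspa1b together, which avoids splitting their reads, stood at 1.59, 2.24, 3.36 and 3.38 times Hspa8. The mean was 1.91 ± 0.455 after Vaseline and 3.37 ± 0.0119 after imiquimod (SD, 2 libraries each), a 1.76-fold difference. Other shared reads keep this ratio uncertain. Of the possible reads of Hspa1a 61.7% match some other gene, 52.7% Hspa1b, and of those of Hspa8 33.0% match other genes. Hspa5 over Hsp90aa1 was 1.14, 1.25, 0.355 and 0.633, or 0.414-fold with imiquimod. Hsph1 over Hspa5 was 0.144, 0.245, 0.865 and 0.859 (4.43-fold), and Dnajb1 over Hspa5 was 0.149, 0.117, 0.490 and 0.430 (3.46-fold), both chosen after their values were seen. In these 4 chaperone ratios the groups did not overlap, and each gave a two-sided exact permutation p of 0.333, the smallest possible with 2 against 2. Shuffled labels leave groups without overlap at that same rate. Adjusted over the 14 ratios computed, none was below 0.519. All but the first of these ratios hold Hspa5, so they are not independent of each other. The same test gave 0.333 for the ratios of Nr4a2 to Nr4a1 and Dusp2 to Dusp1, above, and 0.667 for 3 other ratios of immediate early genes, which overlapped: Fos over Jund was 5.66, 4.76, 3.07 and 5.53, Junb over Jund 3.38, 4.06, 1.89 and 3.66, and Atf3 over Atf4 2.14, 1.69, 2.34 and 2.12. Of further ratios chosen after the values were seen, Hspa5 over Hspa1a and Hspa1b together was 0.389, 0.309, 0.0853 and 0.123, lower in both imiquimod libraries. Hspb1 over Hspa5 was 0.0549, 0.0275, 0.498 and 0.0771, with imiquimod 1 far above the rest. Fosl2 over Fosb was 0.306, 0.329, 0.217 and 0.538, with imiquimod at both ends.

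**Figure D4:**
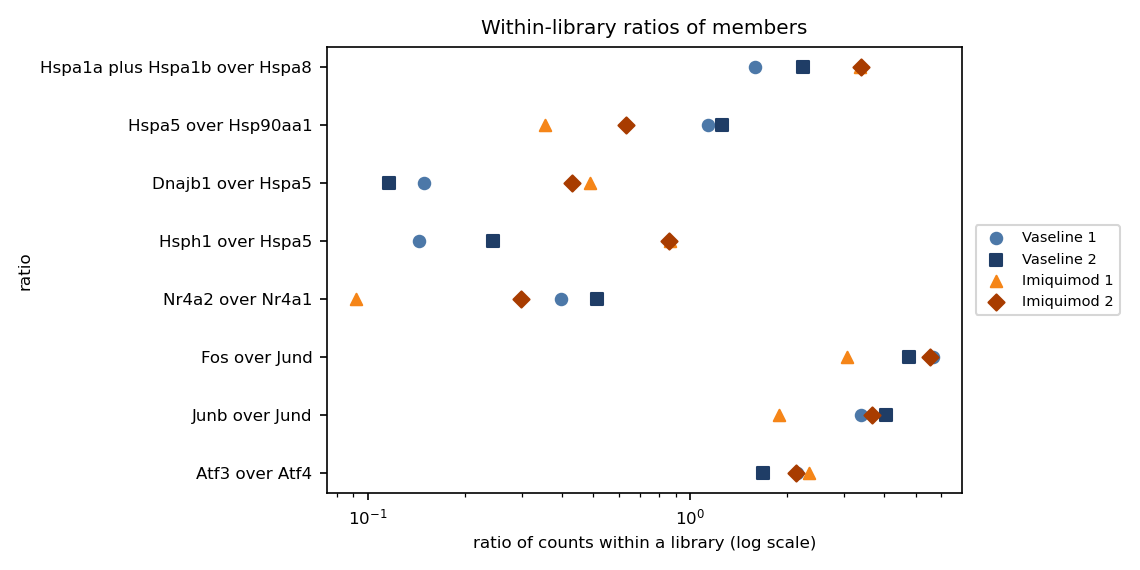
Ratio of the counts of 2 genes, or of Hspa1a and Hspa1b together over Hspa8, within a library (x axis, log scale), 1 point per library. The groups do not overlap in the upper 5 ratios, 4 of chaperones and that of Nr4a2 to Nr4a1, and overlap in the lower 3. All chaperone ratios but the first hold Hspa5 and are not independent.

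Summed over the 8 genes, heat shock transcripts took 6892, 13987, 22208 and 12031 CPM of the library total. Their mean was 10440 ± 5017 after Vaseline and 17119 ± 7196 after imiquimod (SD, 2 libraries each), an overlap with an exact permutation p of 0.667. Immediate early genes took 15739, 16628, 20416 and 13335 CPM, or 16184 ± 629 and 16875 ± 5007, with an exact permutation p of 1.0. The ratio of the heat shock to the immediate early sum was 0.438, 0.841, 1.09 and 0.902, lower in both Vaseline libraries, with an exact permutation p of 0.333 (0.519 adjusted over the 14 ratios). This ratio was chosen after the values were seen.

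Other genes of the same pathways were taken from 4 lists. Of 44 other early response genes, 36 had negative values (median -0.50) and none passed edgeR. Those of smallest p were Mafk, a small MAF factor, at -1.31, Per1, a clock gene, at -1.37, and Egr4 at 1.13. Of 28 upstream kinases and factors 26 were negative (median -0.75) and none passed; the ERK kinase Mapk3 had -1.84 (SE 0.69, adjusted p = 0.267 by edgeR, 0.0313 by DESeq2). Of 37 other chaperones and HSF genes 33 were negative (median -0.71) and none passed edgeR. Their smallest p values belonged to genes of the endoplasmic reticulum: Dnajc3 (-1.95, edgeR adjusted p = 0.256, DESeq2 0.0194), Dnajb11 (-1.55) and Hspa13 (-1.28). DESeq2 called 2, 1 and 2 genes lower in these lists and 0 higher, beside 1.7% of all tested genes lower, counted as above. In the fit of all tested genes 82.9% of genes at 5 times the background or more were negative (median -0.68), so nothing is read from the signs in these lists. Among genes above background fitted alone their medians were 0.21, -0.032 and 0.013.

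Of 27 genes of the unfolded protein and integrated stress responses, 24 had negative values, with a median of -1.10, and -0.31 among genes above background, where 18 of 27 were negative, beside 64.5% of the 7377 genes described above. These shares are near those of other genes of like level, and nothing is read from them. edgeR called 1 of the 27 lower and 0 higher, beside 0.137% and 0.0634% of all tested genes. Sdf2l1, an endoplasmic reticulum protein that works with BiP, had 17.9, 59.7, 5.55 and 7.37 CPM and fell by 2.57 on the log2 scale (SE 0.65, edgeR adjusted p = 0.0408). Its DESeq2 adjusted p was 0.00507 and that of limma-voom 0.0270. The edgeR call was lost among genes above background (-1.62, adjusted p = 0.471) and on library totals (0.299), and without single libraries: the value was -1.49 (adjusted p = 0.999) without Vaseline 2, -2.48 (0.291) without imiquimod 1 and -2.81 (1.0) without imiquimod 2. In these fits 1 group has a single library, which is assumed to vary like the other group. Creld2, also induced by stress of the endoplasmic reticulum, had 38.4, 109, 25.8 and 23.2 CPM and -1.59 (adjusted p = 0.301 by edgeR). Pdia4, a disulfide isomerase, had 108, 243, 64.6 and 45.4 CPM and -1.68 (0.331 by edgeR, 0.0455 by DESeq2).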

How the data were processed

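Total RNA of isolated Langerhans cells was sequenced in 4 libraries made with a stranded pico-input kit, per the labels' protocols. The authors deposited raw counts per gene, as whole numbers without any scaling. Reads were handled with Trimmomatic, HISAT2, SAMtools and StringTie and build GRCm38, per the submitters' processing notes; versions, annotation, strand setting and multi-mapped reads are not given in the sources used here. Exon lengths came from GENCODE, with 55227 of 55487 genes matched.

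Groups were compared with the edgeR 4.0.16 quasi-likelihood test (R 4.3.3, TMM factors, filterByExpr with a minimum count of 10 and minimum total of 15, two-sided, no covariate), Benjamini-Hochberg adjusted over 39439 genes, threshold 0.05. The SE was derived from the F statistic. Genes at 5 times the background of receptor genes or more, as a mean ratio over the libraries, were refitted. Sums and within-library ratios were compared by exact permutation. Possible reads are 75-base stretches of transcripts. Promoters are RefSeq windows; 7 genes had no entry and no sequence from chromosome 18 is printed. Alternatives were RLE, upper-quartile or no factors, no or a stricter filter (10 counts in each library), summed symbols, DESeq2 1.42.0, limma-voom (limma 3.58.1), the older quasi-likelihood form, replicate blocks and each library left out. The block was checked because labels number the libraries. The 42 genes and all lists were chosen with earlier results of these data known. Values are given in every library for genes of highest level, of unadjusted p under 0.05, AP-1 and heat shock genes, and others by role; from each pathway list up to 3 genes of smallest p are named. Python 3.11.15, numpy 2.4.6, pandas 2.3.3, bedtools 2.31.1, Biopython 1.88 and matplotlib 3.10.9 were used. Lists of suprabasal keratinocyte, monocyte and T cell markers gave 3343, 2077, 1638 and 1205, 160.4, 100.2, 44.2 and 202, and 463, 506, 302 and 395 CPM of the library total.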

Additional observations from a re-analysis of the deposited data

How the results depend on the processing

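With 2 libraries a group and a biological coefficient of variation of 0.607, large differences could go uncalled as well as small ones. Nr4a2, at a log2 fold change of -2.13, had an edgeR adjusted p of 0.281. The lack of calls therefore does not show that the genes were unchanged. In every setting run edgeR called 0 of the 42 genes higher or lower, as did limma-voom, and only DESeq2 called 1 lower (Nr4a2). Nr4a2, Dusp2 and Hspa5 kept a negative value in every setting. This was not particular to them, since at least Fos, Fosb, Fosl2, Junb, Nr4a3, Atf4, Ier2, Ier5, Dusp5 and Zfp36 did the same. The median ran from -1.52 to 0.081 for immediate early genes and from -0.99 to 1.24 for heat shock genes, so both changed sign. The immediate early share had a log2 ratio of 0.060 on library totals and -0.69 on TMM effective totals. For DESeq2 the counts lower were 2 other early response genes, 1 upstream gene, 2 other chaperones and 2 unfolded protein response genes. The edgeR call of Sdf2l1 in that last list (1 gene) became 0 with RLE factors, upper-quartile factors, library totals, no filter, the older quasi-likelihood form, genes above background and either replicate block; leaving out single libraries gave 0 to 1. Its cause was not tested.

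Deviations of same-numbered libraries from their group means correlated at -0.33 over 39439 genes. Each group has 2 libraries, so this is a single comparison and cannot decide whether replicate numbers pair the samples. With the replicate block 0 of the 42 were called and the smallest adjusted p was 0.705; 1 gene of the table was called higher and 0 lower, and with the crossed block 0 and 0. Log2 fold changes of opposite sign were, with the block, Fosl1 -0.51 and Egr3 -0.26, and with the crossed block, chosen after seeing the data, Fosl1 -0.53 and Egr3 -0.27.

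Values of opposite sign under other settings were, with DESeq2, Fosl1 -0.089, Egr3 -0.082, Hspa1a -0.14 and Hspa1b -0.10; with RLE factors, Fosl1 -0.095, Egr3 -0.092, Hspa1a -0.14 and Hspa1b -0.10; with limma-voom, Fosl1 -0.40 and Egr3 -0.17. With the stricter filter they were Jun 0.11 and Hsp90aa1 0.13, and with upper-quartile factors Jun 0.30, Jund 0.023, Egr1 0.091, Klf4 0.015 and Hsp90aa1 0.34. On genes above background they were Jun 0.60, Jund 0.34, Egr1 0.42, Egr2 0.25, Nr4a1 0.25, Atf3 0.17, Ier3 0.27, Dusp1 0.35, Klf4 0.29, Klf6 0.26, Btg1 0.016, Btg2 0.060, Zfp36l1 0.070, Myc 0.045, Ppp1r15a 0.13, Ccn1 0.26, Hspa8 0.23 and Hsp90aa1 0.68. On library totals they were Jun 0.64, Jund 0.37, Egr1 0.45, Egr2 0.26, Nr4a1 0.28, Atf3 0.20, Ier3 0.31, Dusp1 0.38, Klf4 0.32, Klf6 0.31, Btg1 0.068, Btg2 0.094, Zfp36l1 0.12, Myc 0.061, Gadd45b 0.014, Ppp1r15a 0.17, Ccn1 0.27, Hspa8 0.29 and Hsp90aa1 0.74. Ranges over single libraries left out, for genes whose sign changed, were Fosl1 -2.20 to 0.99, Jun -1.43 to 0.66, Jund -1.58 to 0.34, Egr1 -1.14 to 0.31, Egr2 -1.51 to 0.28, Egr3 -1.52 to 0.89, Nr4a1 -1.55 to 0.21, Atf3 -1.95 to 0.25, Ier3 -1.47 to 0.15, Dusp1 -1.25 to 0.19, Klf2 -0.16 to 0.74, Klf4 -1.87 to 0.43, Myc -2.09 to 0.20, Gadd45g -1.68 to 0.0034, Ccn1 -1.90 to 0.44, Hspa1a -0.90 to 1.42, Hspa1b -0.80 to 1.48, Hspa8 -1.56 to 0.37, Hsp90aa1 -1.30 to 0.87, Hsph1 -0.46 to 1.99, Hspb1 -1.08 to 2.70 and Dnajb1 -0.47 to 1.07. The cause of these changes was not tested.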
